A study of Homo sapiens with 14 samples.

Results

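The genes described here control passage through the G1 phase of the cell cycle. They are the D-type cyclin genes CCND1, CCND2 and CCND3, the kinase genes CDK4 and CDK6, the inhibitor genes CDKN1A, CDKN1B, CDKN2C and CDKN2D, and the retinoblastoma gene RB1. They were picked by name, with earlier results of these data known, and make up 10 of the 19923 genes counted. A filter on low counts left 9 of the 10 for testing in each batch, all but CCND2. RNA was sequenced from 14 libraries of SK-N-BE2, an established human neuroblastoma line with an amplified MYCN gene, in 7 groups of 2 libraries. Batch 1 held genetically wild-type cells given either H2O or CoCl2, the latter at 10 µM or at 50 µM (cobalt chloride is a salt widely used to mimic low oxygen because it stabilises HIF proteins). Batch 2 held untreated cells labelled wild type (WT) and untreated cells labelled TET2 knockout 1, 2 and 3, where TET2 is an enzyme that oxidises methylated cytosine in DNA. The labels give neither the time of exposure to CoCl2 nor how the knockouts were made, nor whether a number stands for a clone or a pool, so each number was kept as a group of its own. TET2 mRNA was not lower in any group labelled knockout, with log2 fold changes against WT of 0.21, 0.40 and 0.08 for knockouts 1, 2 and 3. In the quasi-likelihood test of edgeR it was higher in knockouts 1 and 2 (adjusted p 0.000664 and 3.86e-12), while knockout 3 had an adjusted p of 0.301. The 3 groups are called labelled knockouts below.

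D-type cyclins bind CDK4 and CDK6, and the active kinases phosphorylate the RB1 protein, which releases E2F transcription factors and so turns on genes of DNA synthesis. INK4 proteins such as p18 (CDKN2C) and p19 (CDKN2D) bind CDK4 and CDK6 and keep the D-type cyclins away, while the CIP/KIP proteins p21 (CDKN1A) and p27 (CDKN1B) bind cyclin-kinase complexes and block CDK2. In neuroblastoma, MYCN is known to drive cells through G1, and both CCND1 and CDK4 are known to be gained in some of these tumours.

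The sequences before the transcription starts were searched for the E-box CACGTG, the motif bound by MYCN, because the line is MYCN-amplified. RefSeq windows (GRCh38.p14) of 250 bases before the start were at hand for 8 of the 10 genes, 13 windows in all. CCND1 and CCND2 had none. The only RB1 window (chromosome 13, 48476200 to 48476449) lay before a start inside the gene, which begins at 48303726. The windows of CDK4, CDKN1A, CDKN1B and CCND3 also lay inside the spans of these genes in the annotation used for counting. In it CDKN1A begins at 36676460 and CDKN1B at 12715058, and on the minus strand CDK4 begins at 57756013 and CCND3 at 42050357. The E-box occurred in 3 of the 13 windows and in 6.34% of all 35093 windows of that length. CDK4 had 3 E-boxes in 1 window, 216, 196 and 101 bases before the start, and CDKN2C had 1 before each of 2 of its 3 starts, at 220 and 69 bases. They are printed 5′ to 3′ on the strand of the gene, with the E-box in capitals, because CDK4 and CDKN2C are the members that hold it. The first 2 CDK4 stretches overlap, and the third lies in an exon of the annotation used for counting.
CDK4, chr12:57752511-57752536, minus strand: gtcaagcggtCACGTGtgatagcaac
CDK4, chr12:57752491-57752516, minus strand: agcaacagatCACGTGgctgccatcg
CDK4, chr12:57752396-57752421, minus strand: gggtggcggtCACGTGcccagaacgt
CDKN2C, chr1:50960515-50960540, plus strand: ttgtgcacctCACGTGgttagtcaca
CDKN2C, chr1:50970166-50970191, plus strand: gctgaataatCACGTGtgaatcgagg

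The stretch before the RefSeq start of CDKN1A is printed because CDKN1A had the widest change of the members under CoCl2. These 194 bases lie outside the counted exons, with 2 GC boxes (GGGCGG) in capitals.
CDKN1A, chr6:36678464-36678657, plus strand: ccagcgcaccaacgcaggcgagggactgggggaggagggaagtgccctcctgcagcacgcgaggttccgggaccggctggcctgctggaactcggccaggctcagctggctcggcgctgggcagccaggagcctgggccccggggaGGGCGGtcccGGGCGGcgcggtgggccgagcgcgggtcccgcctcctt
The whole 250-base CDKN1A window held 4 GC boxes on both strands together, a motif found in 42.6% of all windows. Of the cores bound by HIF, GCGTG occurred once in it, 195 bases before the start (32.2% of all windows hold it), and ACGTG did not occur (18.5% of all windows). CACGTG contains ACGTG on both strands, so each E-box also counts as this core. The E2F motif, searched on both strands as TTTCCCGC, TTTCGCGC, TTTGGCGC or TTTGCCGC, was in none of the 13 windows and in 2.79% of all windows. Those 13 windows did not cover CCND1, CCND2 or the beginning of the RB1, CDK4, CDKN1A, CDKN1B and CCND3 genes in the annotation used for counting.

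The summed counts of a library ran from 31214128 to 39540111 in batch 1 and from 52095024 to 59263320 in batch 2, whose fragments were mostly counted once per read. The labelled cell type was checked by its markers. MYCN ranged from 4497 to 5577 CPM (counts relative to the scaled library total) in batch 1 and from 2815 to 4715 CPM in batch 2, and 7 of 8 adrenergic neuroblast markers passed the filter in each batch. Markers of other cell types moved with the labelled knockouts. The summed level of 10 mesenchymal markers was 1470 to 1488 CPM in WT and 983 to 1186 CPM in the labelled knockouts, with 5 of 9 tested lower and 0 higher in their average. In labelled knockouts 1, 2 and 3 singly, 6, 5 and 6 of them were lower and 2, 0 and 1 higher. Over all genes 9.72%, 14.3% and 9.96% were lower there and 7.79%, 12.0% and 8.90% higher. COL1A2 was at 0 in WT and labelled knockout 2, and PRRX1 in labelled knockouts 1 and 3. The summed level of 8 endothelial markers was 14.8 to 15.6 CPM in WT and 2.21 to 6.04 CPM in the labelled knockouts, with 6 of 8 lower in their average and none at 0 in a whole group. Of the 7 adrenergic markers tested 3 were higher and 1 lower in that average, where 7.54% of all genes were higher and 11.4% lower. All 7 differed among the labelled knockouts, where 37.6% of all genes did. Under 50 µM CoCl2 the mesenchymal sum was 1658 to 1679 CPM against 1307 to 1313 CPM in H2O, and the endothelial sum 1.57 to 1.65 against 2.53 to 3.00 CPM. Of the 7 mesenchymal markers tested 3 were higher and 3 lower there, of the 4 endothelial ones 2 lower, and COL1A2 was at 0 in H2O and KDR and TIE1 at 50 µM. Of the 7 adrenergic ones 5 were higher and 1 lower at 50 µM. Over all genes, 30.4% were higher and 31.1% lower at that dose. The part of these markers in the results below was not tested. In bulk RNA, fewer cells of a kind and less RNA per cell cannot be told apart. Nothing in the labels says that the 2 libraries of a group came from separate cultures, so p-values measure the spread between these libraries.

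CCND1 supplied nearly all D-type cyclin mRNA. Per length, in TPM (counts per exon base, relative to the sum over all genes), CCND1 was at 472 ± 7.80 in H2O and 564 ± 18.8 in WT (SD, n = 2), and CCND3 at 24.1 ± 0.375 and 39.9 ± 2.36. CCND1 held 93.3% to 95.2% of the summed TPM of the 3 D-type cyclins over the 14 libraries. CCND2 (chromosome 12, 4273762 to 4305353, plus strand) had 8 counts over the 6 libraries of batch 1 and 2 over the 8 of batch 2, at most 2 in a library. That is under the 3 counts that a count of 0 allows, so no fold change is given for CCND2.

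CDK4 and CDK6 were both abundant. Their levels in H2O were 272 ± 5.50 and 269 ± 0.629 TPM, and CDK4 held 47.0% to 59.3% of their sum over the libraries. CDK4 shares 1369 of its 3094 exon bases with TSPAN31 on the opposite strand. Counting used no strand and left reads of shared exons unassigned, and over its unshared length CDK4 was at 487 TPM in H2O and 470 TPM in WT. On that scale CDK4 held 61.4% to 72.3% of the sum, so CDK4 stood above CDK6 per length in each library, while over the full length it did so in each library of batch 2 and in only some of batch 1. Reads of CCND1 were affected less, with 10.4% of its exon length shared with LTO1.

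Among the inhibitors, CDKN1B was the most abundant per length in each of the 7 groups. In H2O the levels were 273 ± 3.71 TPM for CDKN1B, 90.7 ± 2.17 for CDKN2C, 33.7 ± 0.262 for CDKN2D and 25.9 ± 0.105 for CDKN1A. In WT of batch 2 they were 178 ± 1.25, 117 ± 1.64, 32.3 ± 1.92 and 61.0 ± 0.511 TPM in the same order, so CDKN1A stood above CDKN2D there. RB1 was at 106 ± 2.85 TPM in H2O and 110 ± 1.52 TPM in WT. Levels of H2O and WT are set side by side without a test, since batch and culture cannot be told apart.

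**Figure D1:**
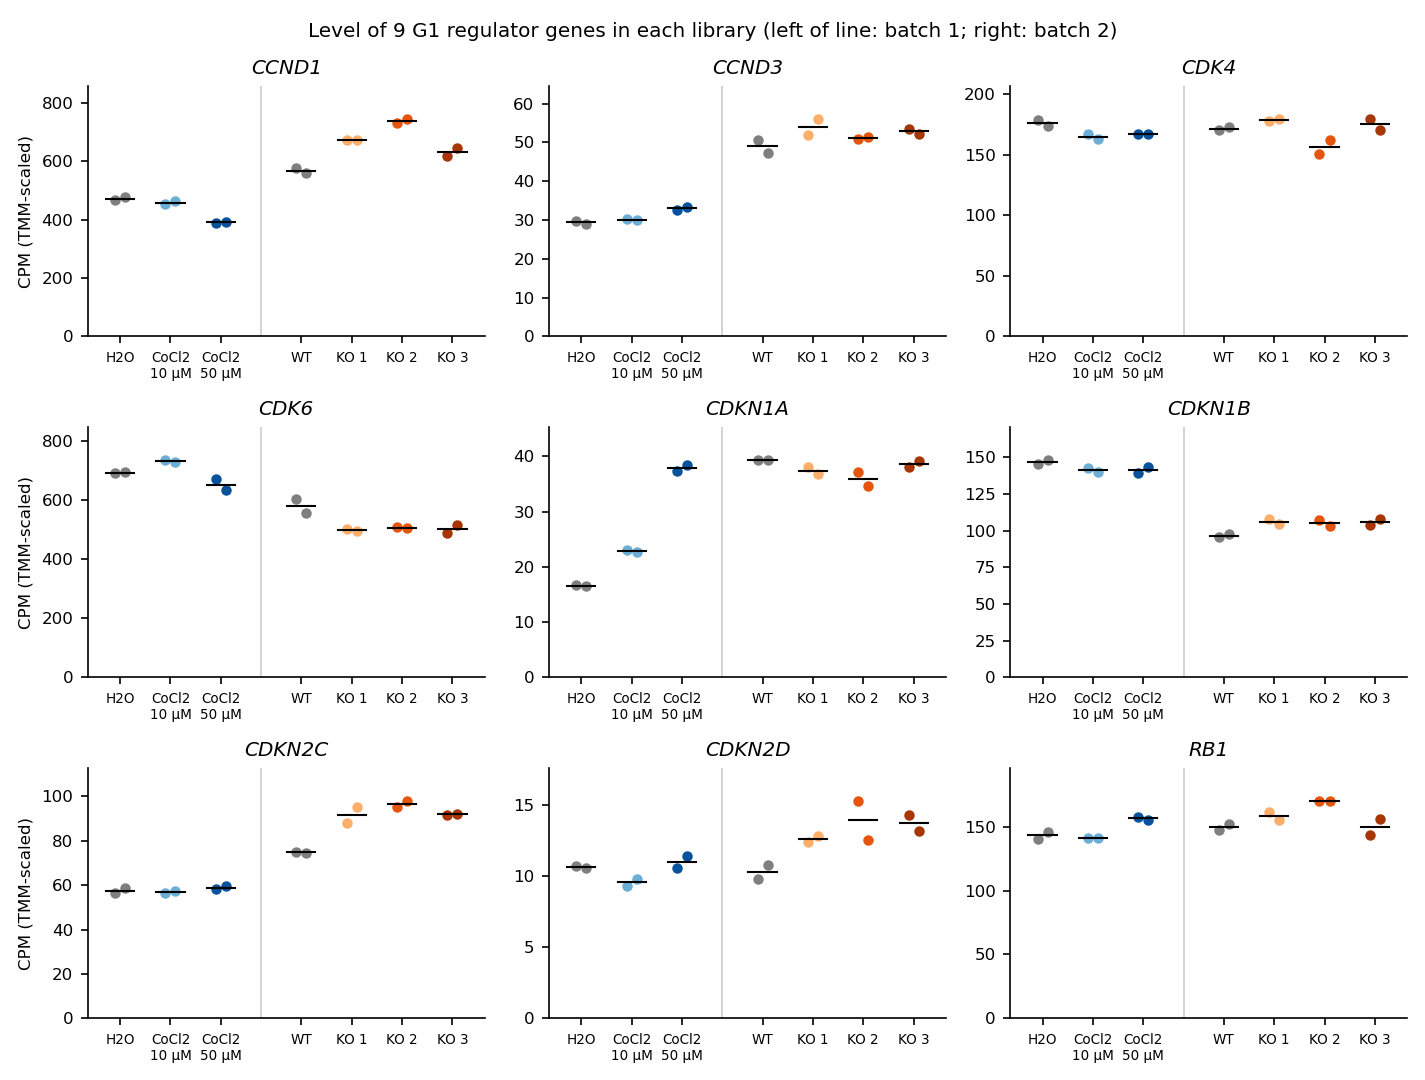
Level of 9 G1 regulator genes in CPM scaled by TMM (vertical axis, from 0) in each library, with a dot per library and a bar at the mean of 2; H2O and CoCl2 groups of batch 1 stand left of the grey line, WT and labelled knockouts (KO) of batch 2 right of it. CDKN1A climbs with CoCl2 from 16.6 to 38.5 CPM, CCND1 is lower at 50 µM CoCl2 and higher in each labelled knockout, and CDK6 is lower in each labelled knockout.

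Under CoCl2, CDKN1A rose at both doses and had 2.28 times its H2O level at 50 µM, while CCND1 fell by 17.3% at 50 µM. The other called changes of members at 50 µM were 1.12-fold at most: CCND3 and RB1 were higher, and CDK4, CDK6 and CDKN1B lower. In the quasi-likelihood test of edgeR, adjusted by Benjamini-Hochberg over 13636 genes (the source of each adjusted p below, called under 0.05), 3 of 9 members passed at 10 µM, where 22.7% of all genes did. At 50 µM 7 of 9 passed, where 61.4% of all genes did. With 9 members, both shares are near the background. Between the doses 6 of 9 members differed, against 52.8% of all genes, and 4 were higher and 2 lower at 50 µM than at 10 µM, against 26.2% and 26.5%. Both doses were compared with the same H2O libraries.

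CCND1, the main D-type cyclin gene of these cells (chromosome 11, 69641156 to 69654474, plus strand), was at 467 and 478 CPM in H2O. It was at 454 and 463 CPM at 10 µM and at 389 and 393 CPM at 50 µM. Both 50 µM libraries lay below the other 4, and the 10 µM libraries lay just under those in H2O without overlap. The log2 fold change was -0.27 at 50 µM (SE 0.018, adjusted p 4.97e-33) and -0.23 between the doses (SE 0.018, adjusted p 9.21e-26). At 10 µM it was -0.043 (SE 0.017, adjusted p 0.0526). That value passed the threshold in 7 of 14 alternatives, among them the fits without H2O replicate 1 (adjusted p 0.0348) or without either 50 µM library (0.0277 and 0.0259), and over all 14 its adjusted p ran from 0.0114, in the legacy quasi-likelihood fit, to 0.435, without H2O replicate 2.

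CCND3 (chromosome 6, 41934933 to 42050357, minus strand), the minor D-type cyclin, moved the other way. It was at 29.7 and 29.1 CPM in H2O, 30.4 and 29.9 CPM at 10 µM, and 32.6 and 33.4 CPM at 50 µM. The 50 µM libraries were the highest 2 and did not overlap the rest. The log2 fold change at 50 µM was 0.17 (SE 0.046, adjusted p 0.000907), and that between the doses was 0.13 (adjusted p 0.0117). The difference between the doses was not called without 10 µM replicate 2 (adjusted p 0.0884), without 50 µM replicate 2 (0.112), in DESeq2 (0.149) or in 1 fit of all 14 libraries (0.137). CCND1 fell from 95.1% to 93.5% of the D-type cyclin TPM between H2O and 50 µM.

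CDK6 (chromosome 7, 92604921 to 92836594, minus strand) changed direction with dose. It was at 692 and 695 CPM in H2O, 737 and 728 CPM at 10 µM, and 670 and 634 CPM at 50 µM. The 3 groups did not overlap, with 10 µM on top and 50 µM at the bottom. CDK6 rose by 0.079 at 10 µM (SE 0.016, adjusted p 3.75e-05) and fell by 0.090 at 50 µM (SE 0.016, adjusted p 4.35e-07) on the log2 scale, and the direct difference between the doses was -0.17 (SE 0.016, adjusted p 2.21e-18). The rise at 10 µM was not called in DESeq2 (adjusted p 0.122) or in 1 fit of all 14 libraries (0.123).

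CDK4 (chromosome 12, 57747727 to 57756013, minus strand) was lower at both doses. It was at 179 and 174 CPM in H2O, 167 and 163 CPM at 10 µM, and 167 and 167 CPM at 50 µM. All 4 treated libraries lay below the H2O pair. The log2 fold changes were -0.098 (SE 0.023, adjusted p 0.000394) and -0.080 (SE 0.023, adjusted p 0.00168), and the doses differed by 0.019 with a 95% interval from -0.028 to 0.065 (adjusted p 0.530). The call at 10 µM was lost without 10 µM replicate 2 (adjusted p 0.0605) and that at 50 µM without H2O replicate 1 (0.0597), and both were lost in 1 fit of all 14 libraries (0.108 and 0.0622).

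CDKN1A (chromosome 6, 36676460 to 36687339, plus strand), which encodes p21, had the widest range of group means of the members in batch 1. It was at 16.7 and 16.6 CPM in H2O, 23.0 and 22.6 CPM at 10 µM, and 37.4 and 38.5 CPM at 50 µM. The groups followed the dose with no overlap. The log2 fold change was 0.46 at 10 µM (SE 0.056, adjusted p 9.73e-12), 1.19 at 50 µM (SE 0.051, adjusted p 3.19e-52) and 0.73 between the doses (SE 0.048, adjusted p 1.78e-31). CDKN1A made up 6.06% to 6.20% of the summed TPM of the 4 inhibitors in H2O, 8.47% to 8.56% at 10 µM and 13.2% in both libraries at 50 µM.

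CDKN1B (chromosome 12, 12715058 to 12722369, plus strand), which encodes p27, was at 146 and 148 CPM in H2O, 143 and 140 CPM at 10 µM, and 140 and 143 CPM at 50 µM. The treated libraries lay below the H2O pair by a few percent. At 50 µM the log2 fold change was -0.055 (SE 0.025, adjusted p 0.0465), a call that was lost in 9 of 14 alternatives. They were DESeq2 (adjusted p 0.180), upper-quartile scaling (0.131), no dispersion floor (0.0600), the legacy quasi-likelihood fit (0.0543), the replicate number as a block (0.0567), 1 fit of all 14 libraries (0.202), and the fits without H2O replicate 2 (0.234), 10 µM replicate 1 (0.0578) or 50 µM replicate 1 (0.277). At 10 µM the value was -0.055 (SE 0.024, adjusted p 0.0916).

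The INK4 genes showed no called change against H2O. CDKN2C (chromosome 1, 50960745 to 50974634, plus strand) stayed between 56.4 and 59.4 CPM in the 6 libraries, and its log2 fold change at 50 µM was 0.032 with an interval from -0.037 to 0.10 (adjusted p 0.447). CDKN2D (chromosome 19, 10566460 to 10569059, minus strand) was at 10.7 and 10.6 CPM in H2O, 9.34 and 9.80 CPM at 10 µM, and 10.6 and 11.4 CPM at 50 µM. The 10 µM pair was the lowest. The doses differed by 0.21 on the log2 scale (SE 0.081, adjusted p 0.0231), which was lost without 10 µM replicate 1 (adjusted p 0.128), without 50 µM replicate 2 (0.246), in DESeq2 (0.201) and in 1 fit of all 14 libraries (0.194).

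RB1 (chromosome 13, 48303726 to 48599436, plus strand), the substrate of the CDK4 and CDK6 kinases, rose at the higher dose. It was at 141 and 146 CPM in H2O, 141 and 141 CPM at 10 µM, and 158 and 155 CPM at 50 µM. The 50 µM pair lay above the other 4 libraries. The log2 fold change was 0.13 at 50 µM (SE 0.024, adjusted p 1.65e-06), 0.15 between the doses (SE 0.025, adjusted p 3.95e-08) and -0.024 at 10 µM (adjusted p 0.548).

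In the labelled TET2 knockouts, CCND1, CDKN2C, CDKN2D and CDKN1B were higher and CDK6 lower than in WT, each called in each of the 3. Fold changes stayed between 0.858 and 1.36. CDKN1A and CCND3 were called in none of them. Of 9 members, 5 passed in labelled knockout 1 (17.5% of 14061 genes did, 9.72% being lower), 7 in labelled knockout 2 (26.3%) and 5 in labelled knockout 3 (18.9%, with 9.96% lower). Of the members 1, 2 and 1 were lower. In the average of the 3 against WT 6 of 9 passed, 5 higher and 1 lower, where 7.54% of all genes were higher and 11.4% lower (18.9% in all). The share of members called was above the background in each. Because the members were chosen with earlier results of these data known, that share is a description. The median log2 fold change of the 9 members in the average was 0.10, against -0.0018 over all genes. The 3 labelled knockouts were set against the same 2 WT libraries, so their values are not independent of one another.

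**Figure D2:**
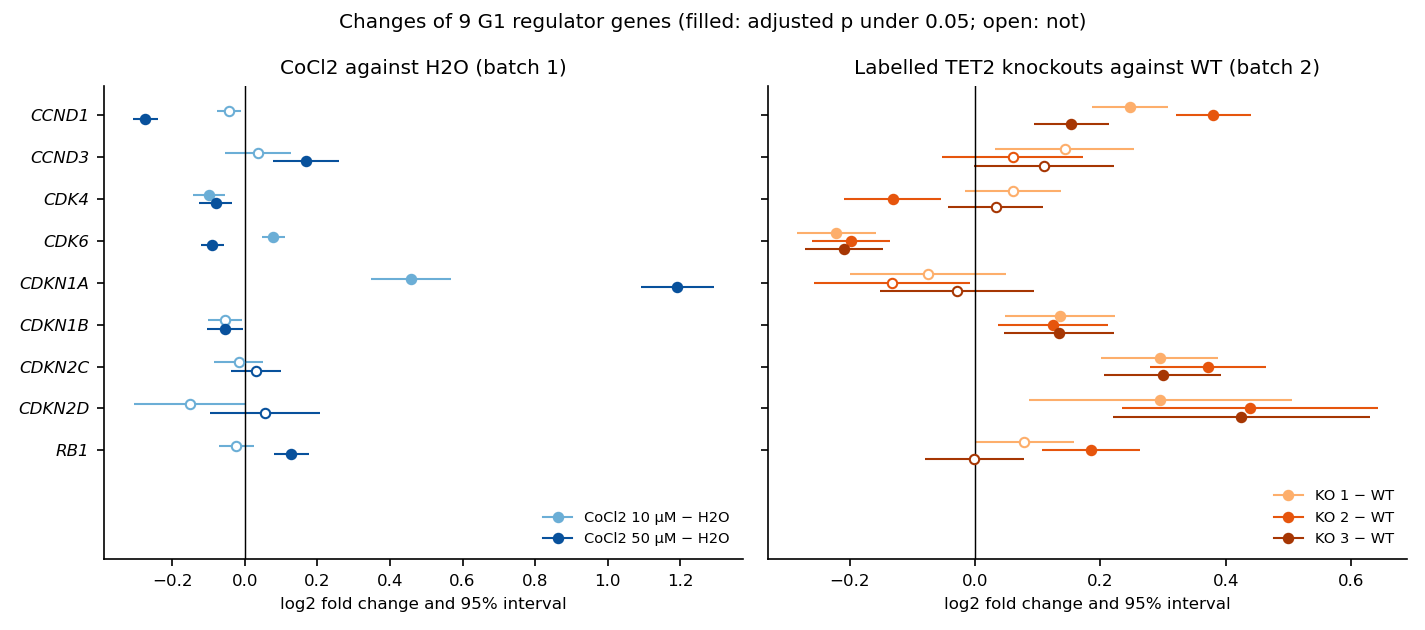
Log2 fold change of 9 G1 regulator genes (horizontal axis; dots with lines for the 95% interval; filled where the adjusted p is under 0.05) for CoCl2 against H2O (left) and for the labelled knockouts against WT (right), on separate scales. CDKN1A reaches 1.19 at 50 µM on the left, and on the right CCND1, CDKN1B, CDKN2C and CDKN2D lie above 0 and CDK6 below 0 for each labelled knockout.

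CCND1 was at 578 and 559 CPM in WT. It was at 675 and 675 CPM in labelled knockout 1, 733 and 747 CPM in labelled knockout 2, and 620 and 645 CPM in labelled knockout 3. All 6 labelled knockout libraries exceeded both WT libraries, and those of knockout 2 were the highest. The log2 fold changes were 0.25 (SE 0.031, adjusted p 2.84e-12), 0.38 (SE 0.031, adjusted p 3.43e-25) and 0.15 (SE 0.031, adjusted p 2.29e-05). The labelled knockouts differed from each other, by 0.23 between the highest and the lowest (adjusted p 2.81e-10), where 37.6% of all genes differed among them.

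CCND3 was at 50.7 and 47.3 CPM in WT and at 50.8 to 56.1 CPM in the labelled knockouts. The groups lay close together, with the lowest labelled knockout library just above the higher WT library. In labelled knockout 1 the log2 fold change was 0.14 with an interval from 0.032 to 0.25 (adjusted p 0.0643), and it was called without WT replicate 1 (adjusted p 0.0472), without knockout 1 replicate 1 (0.0339) or in 1 fit of all 14 libraries (0.0140). In labelled knockouts 2 and 3 the values were 0.060 (adjusted p 0.482) and 0.11 (adjusted p 0.171). The average of the 3 was 0.10 (adjusted p 0.105), and it was called in 1 fit of all 14 libraries (adjusted p 0.0303).

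CDK6 was the member that fell in each labelled knockout. It was at 605 and 556 CPM in WT, 501 and 496 CPM in labelled knockout 1, 507 and 505 CPM in labelled knockout 2, and 489 and 516 CPM in labelled knockout 3. All 6 lay below the WT pair. The log2 fold changes were -0.22, -0.20 and -0.21 (SE 0.032 each, adjusted p 3.25e-09, 8.27e-08 and 2.16e-08), and the test among the labelled knockouts gave a range of 0.023 (adjusted p 0.835).

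CDK4 was at 170 and 173 CPM in WT and 178 and 180 CPM in labelled knockout 1. It was at 150 and 163 CPM in labelled knockout 2 and 180 and 171 CPM in labelled knockout 3. The lowest 2 libraries were those of knockout 2, where the log2 fold change was -0.13 (SE 0.039, adjusted p 0.00595). That call rested on knockout 2 replicate 1, without which the adjusted p was 0.327. The difference among the labelled knockouts (range 0.19, adjusted p 1.77e-05) was also lost without that library (adjusted p 0.0748). MYCN was at 2815 and 2837 CPM in labelled knockout 2 against 4600 and 4679 CPM in WT, a log2 fold change of -0.72 (adjusted p 9.21e-71), and was not called in labelled knockouts 1 (-0.021, adjusted p 0.643) and 3 (0.021, adjusted p 0.640). Under CoCl2, MYCN was higher than in H2O at 10 µM (0.088, adjusted p 4.10e-10) and lower at 50 µM (-0.22, adjusted p 1.06e-40). CDK4 was lower at both doses. CDKN2C, the other member with E-boxes, was higher than WT in each labelled knockout. Whether the level of MYCN is linked to those of CDK4 and CDKN2C was not tested.

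CDKN2C was at 75.0 and 74.5 CPM in WT. It was at 88.1 and 95.1 CPM in labelled knockout 1, 95.3 and 98.1 CPM in labelled knockout 2, and 91.7 and 92.3 CPM in labelled knockout 3. The 6 labelled knockout libraries stood clear of WT. The log2 fold changes were 0.29 (SE 0.048, adjusted p 1.25e-07), 0.37 (SE 0.047, adjusted p 8.33e-12) and 0.30 (SE 0.048, adjusted p 7.16e-08), and their range of 0.077 did not pass the test among the labelled knockouts (adjusted p 0.292).

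CDKN2D, the other INK4 gene, had the widest range of group means of the members in batch 2. It was at 9.79 and 10.8 CPM in WT, 12.4 and 12.9 CPM in labelled knockout 1, 15.3 and 12.6 CPM in labelled knockout 2, and 14.4 and 13.2 CPM in labelled knockout 3. The labelled knockouts overlapped each other and not WT. The log2 fold changes were 0.30 (SE 0.11, adjusted p 0.0388), 0.44 (SE 0.10, adjusted p 0.000367) and 0.42 (SE 0.10, adjusted p 0.000883). In labelled knockout 1 the call was lost without WT replicate 1 (adjusted p 0.277), WT replicate 2 (0.0503), knockout 1 replicate 1 (0.0839) or knockout 1 replicate 2 (0.219), and in DESeq2 (0.102). In labelled knockout 2 it was lost without replicate 1 (0.122), and the average of the 3, at 0.39 (adjusted p 0.000214), was lost without WT replicate 1 (0.0501) and with 1 coefficient for the knockouts (0.111).

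Of the CIP/KIP genes, CDKN1B rose slightly and CDKN1A showed no called change. CDKN1B was at 95.4 and 97.6 CPM in WT and at 103 to 108 CPM in the 6 labelled knockout libraries, all above WT. Its log2 fold changes were 0.14, 0.12 and 0.13 (SE 0.045 each, adjusted p 0.0208, 0.0269 and 0.0215). These small changes rested on single libraries: without WT replicate 1 the adjusted p values were 0.148, 0.189 and 0.162, and that of the average 0.123 (0.169 with 1 coefficient for the knockouts). Calls were also lost without knockout 1 replicate 1 (0.163), without WT replicate 2 (0.0733) or knockout 2 replicate 1 (0.282) for labelled knockout 2, and without knockout 3 replicate 2 (0.147). CDKN1A was at 39.3 and 39.4 CPM in WT and 34.6 to 39.2 CPM in the labelled knockouts, all below WT. Its average log2 fold change was -0.079 with an interval from -0.18 to 0.022 (adjusted p 0.309). In labelled knockout 2 the CDKN1A value was -0.13 (adjusted p 0.113), and it was called in 1 fit of all 14 libraries (adjusted p 0.0378).

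RB1 was higher in labelled knockout 2. It was at 147 and 152 CPM in WT, 162 and 155 CPM in labelled knockout 1, 170 and 170 CPM in labelled knockout 2, and 144 and 156 CPM in labelled knockout 3. The knockout 2 pair was the highest, and knockout 3 overlapped WT. The log2 fold change was 0.18 in labelled knockout 2 (SE 0.040, adjusted p 6.80e-05), 0.079 in labelled knockout 1 (adjusted p 0.174) and -0.0010 in labelled knockout 3 (adjusted p 0.992). The labelled knockouts differed from each other by 0.19 (adjusted p 0.000175). The average, 0.088 (adjusted p 0.0442), was not called with the replicate number as a block (0.0640), in DESeq2 (0.0726), with no filter on low counts (0.0523), with 1 coefficient for the knockouts (0.593), or without WT replicate 1 (0.407) or 2 (0.0862), knockout 1 replicate 1 (0.102), knockout 2 replicate 1 (0.0769) or 2 (0.0742), or knockout 3 replicate 2 (0.141).

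**Figure D3:**
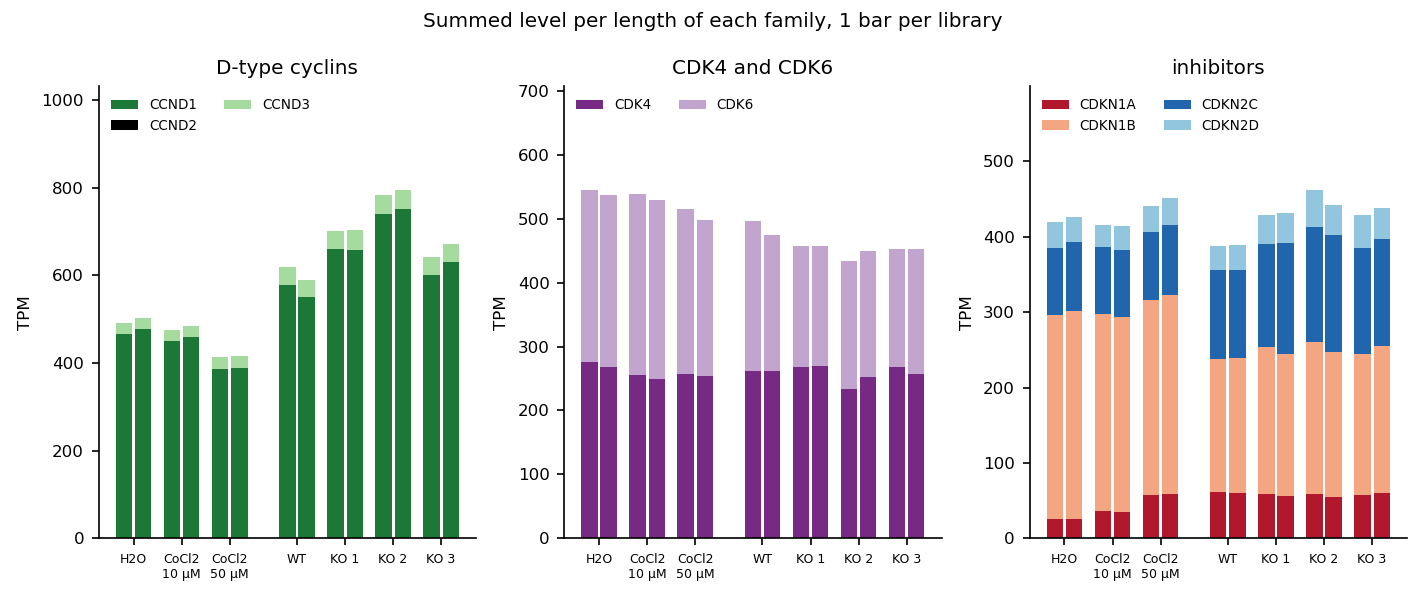
Summed TPM (vertical axis, from 0) of the D-type cyclins, of CDK4 and CDK6 and of the 4 inhibitors, as 1 stacked bar per library and 2 bars per group. CCND1 fills 93.3% to 95.2% of each cyclin bar and CCND2 is too low to see, the CDKN1A layer grows with CoCl2, and the cyclin bars of the labelled knockouts are taller than those of WT.

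The summed TPM of the D-type cyclins was 491 to 502 in H2O and 413 to 416 at 50 µM, and 589 to 619 in WT and 643 to 794 in the labelled knockouts. That of CDK4 and CDK6 was 537 to 544 in H2O and 497 to 515 at 50 µM, and 475 to 497 in WT and 434 to 458 in the labelled knockouts. That of the 4 inhibitors was 419 to 427 in H2O and 440 to 451 at 50 µM, and 387 to 389 in WT and 428 to 461 in the labelled knockouts. Within each of these pairs the ranges did not overlap. How often other genes separate in this way was not counted, so these gaps, and those of single members above, are descriptions. With 2 libraries a group no test of the sums was made.

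The other genes of the pathway were read from lists chosen for their role, with earlier results of these data known. Their shares set against all genes are therefore descriptions. Of 4 further inhibitor genes, 3 were tested in batch 1, and CDKN1C, which encodes p57, the remaining CIP/KIP inhibitor, fell most. Its level was 12.1 ± 0.634 CPM in H2O, 4.79 ± 0.0761 CPM at 10 µM and 2.47 ± 0.0861 CPM at 50 µM (SD, n = 2). Its log2 fold changes were -1.34 (SE 0.090, adjusted p 2.68e-29) and -2.30 (SE 0.11, adjusted p 1.58e-46). CDKN1A and CDKN1C, both CIP/KIP genes, thus moved in opposite directions with dose. CDKN2A, which encodes p16 and ARF, rose at 50 µM (0.24, adjusted p 0.00131), and CDKN3, a phosphatase of CDK2, fell (-0.20, adjusted p 7.26e-06). In batch 2 CDKN1C was at most 0.291 CPM in each library. CDKN3 was the 1 of the 4 called in the average of the labelled knockouts (0.15, adjusted p 0.0152), where 18.9% of all genes were called.

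Downstream of RB1, most S-phase genes known as E2F targets were higher at 50 µM. Of 15, 11 rose and 3 fell, where 30.4% of all genes rose and 31.1% fell, and the median log2 fold change was 0.17 against 0.0020 over all genes. CDT1, which licenses replication origins, rose by 0.69 (adjusted p 1.25e-45), RRM2, a ribonucleotide reductase subunit, by 0.52 (adjusted p 4.17e-68), and CDC6, which loads the replicative helicase, by 0.52 (adjusted p 1.70e-34). The 3 that fell were MCM6, MCM7 and POLA1, named after their values were seen. The 11 that rose did so in the same libraries in which CDKN1A was high and CCND1 low. At 10 µM 3 rose and 2 fell, where 11.6% of all genes rose and 11.1% fell.

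In the average of the labelled knockouts 11 of the 15 S-phase genes rose and none fell, where 7.54% of all genes rose and 11.4% fell, with a median of 0.12 against -0.0018. TK1, thymidine kinase, rose by 0.20 (adjusted p 5.50e-06), RRM2 by 0.18 (adjusted p 1.52e-10) and CDT1 by 0.18 (adjusted p 0.000680). In the single labelled knockouts 10, 5 and 12 rose and none fell, where 7.79%, 12.0% and 8.90% of all genes rose, and 14.3% fell in the second.

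Of 12 pocket protein and E2F genes, 5 rose and 2 fell at 50 µM, where 30.4% of all genes rose and 31.1% fell, so the share called was near the 61.4% of all genes. E2F2 rose by 0.41 (adjusted p 6.26e-21) and E2F1 by 0.36 (adjusted p 3.58e-22), both activators of S-phase genes, and E2F5, a repressor, fell by 0.52 (adjusted p 2.51e-24). E2F7, also a repressor, rose as well (0.31, adjusted p 3.37e-06), as did E2F8 (0.19, adjusted p 0.00906). E2F3 was not called (-0.0048, adjusted p 0.908). E2F7, E2F8 and E2F3 were named here after their values were seen. For the labelled knockouts on average, E2F8 (0.24, adjusted p 0.0135) and E2F1 (0.12, adjusted p 0.00246) rose and TFDP2, an E2F partner, fell (-0.11, adjusted p 0.0415). These were the 3 of 12 called, where 7.54% of all genes rose and 11.4% fell, and with 12 genes that share is near the background. E2F7, a repressor, moved in opposite directions in labelled knockouts 2 (0.41, adjusted p 1.33e-06) and 3 (-0.32, adjusted p 0.00180), and differed among the labelled knockouts (adjusted p 1.96e-15).

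Of 8 genes of cyclin E, cyclin A and CDK2, 3 rose and 2 fell at 50 µM, again near the 61.4% called over all genes. CCNE2, a cyclin E, rose by 0.53 (adjusted p 8.86e-15), while MNAT1, part of the CDK-activating kinase, fell by 0.32 (adjusted p 3.75e-08) and CCNA2, cyclin A, fell by 0.19 (adjusted p 1.30e-12). Averaged over the labelled knockouts, CCNA2 rose by 0.13 (adjusted p 0.000387) and CDC25A, a phosphatase that activates CDK2, by 0.13 (adjusted p 0.0205), and none fell. These were the 2 of 8 called, where 7.54% of all genes rose and 11.4% fell, and with 8 genes that share is near the background. Of 12 genes of cyclin D and p27 breakdown, 2 rose and 4 fell at 50 µM, which is not above the background of 61.4%. SKP2, the ligase subunit that marks p27, fell by 0.27 (adjusted p 1.00e-21). None of the 12 was called in the average of the labelled knockouts, where 18.9% of all genes were.

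**Figure D4:**
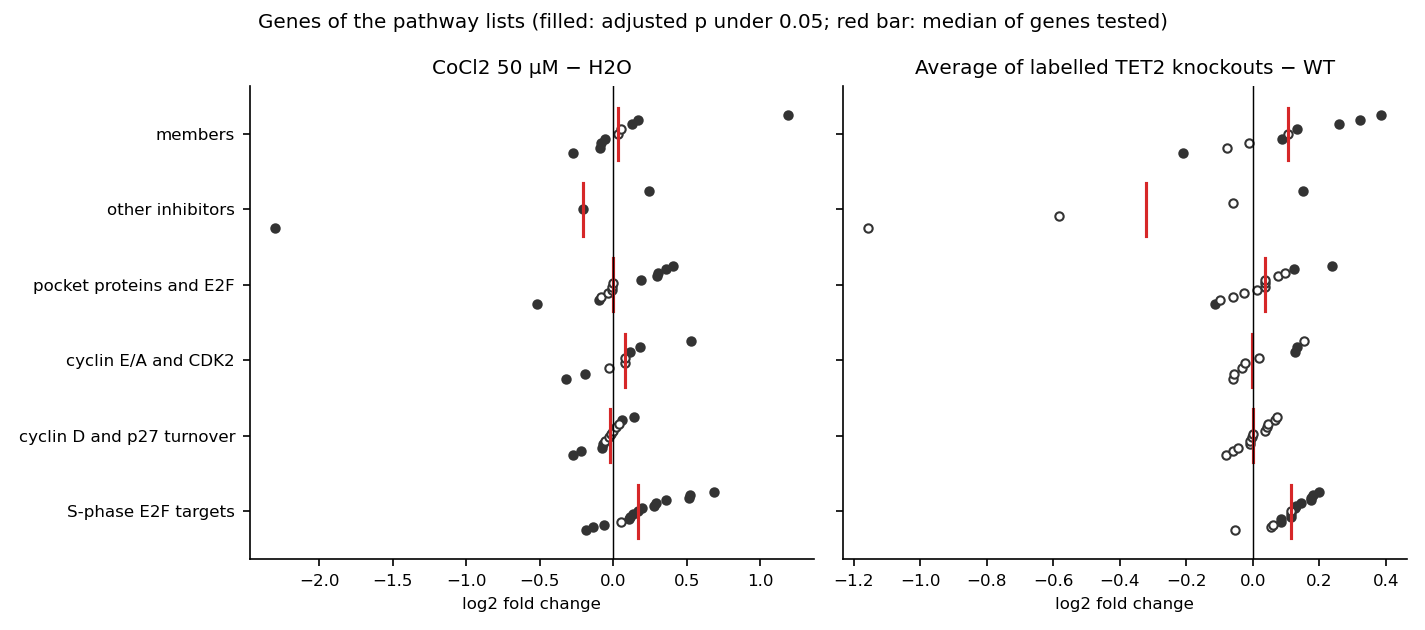
Log2 fold change (horizontal axis, with a scale of its own in each panel) of each tested gene of the members and of 5 pathway lists, 1 dot per gene, filled where the adjusted p is under 0.05, with a red bar at the median of the list; left, 50 µM CoCl2 against H2O, and right, the average of the labelled knockouts against WT. CDKN1C stands at -2.30 on the left, and 11 of 15 S-phase genes are filled above 0 in each panel.

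The genes whose pattern was most like that of CDKN1A over the 6 libraries of batch 1, by Pearson's r of log2 CPM, were CREG1 (0.9997, with a mean of 101 CPM in H2O and of 132 CPM at 50 µM), AC022966.1 and MICAL3. With 3 groups of 2 libraries many genes follow the same steps, and 1319 of 13636 had an r above 0.95. For CDKN2D over the 8 libraries of batch 2 they were NAXD (0.949), ZNF26 (0.940) and LINGO4 (0.930), and none passed 0.95. These are descriptions over libraries that share their groups.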

How the data were processed

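Polyadenylated RNA of SK-N-BE2 cells was measured in 14 libraries. The deposited files hold unscaled counts for each gene name. Per the file headers, featureCounts (1.5.3 in batch 1, 2.0.5 in batch 2) counted reads over protein-coding exons from release 33 of GENCODE (GRCh38), with the paired-end option and no strand option. Trimmomatic 0.36, STAR 2.6.1d and Subread 1.5.3 are named in the submitters' processing notes. Among counts from 1 to 10, 39.0% to 42.3% were even in batch 1 and 77.3% to 80.5% in batch 2, so batch 2 counts mostly stood for reads, and their precision is overstated by the totals.

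Each batch was fitted apart in R 4.3.3 with edgeR 4.0.16 (filterByExpr, TMM, glmQLFit robust with legacy = FALSE, negative binomial dispersion just above 1e-04 at least, glmQLFTest), and p-values were adjusted by Benjamini-Hochberg over all genes tested. SE is the log2 fold change over the root of F, and intervals are 95% intervals from it. The average of the labelled knockouts weights each alike, and the difference among them is 1 F-test. CPM used TMM-scaled totals, and TPM used the length given in the files, without mitochondrial genes. DESeq2 1.42.0 was an alternative, as were other scalings, filters, sets of libraries and a replicate block. The fitting script was tested on simulated data. Same-numbered replicates did not deviate together (r from -0.039 to 0.037 between groups), and replicate pairs differed by more than counting noise (chi-square per gene 1.23 to 1.46 in batch 1 and, with counts halved as for pairs, 1.93 to 2.76 in batch 2).

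The 10 members and the lists were chosen with earlier results of these data known. The text names the members, TET2, MYCN, at most 3 called genes with the widest change per list and comparison, and the 3 genes most alike in each batch. Some further genes of the marker, S-phase and E2F lists were named after their values were seen. Another gene and 1 gene list planned with them are not reported here.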

Additional observations from a re-analysis of the deposited data

Results flagged for a closer look

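The change against WT differed among the 3 labelled knockouts for 3 of 9 members tested, by edgeR's F-test with Benjamini-Hochberg adjustment over 14061 genes, of which 37.6% differed. For CCND1 the largest and smallest log2 fold changes lay 0.226 apart (adjusted p 2.81e-10), with labelled knockout 2 highest and 3 lowest, and all 3 above WT. For CDK4 they lay 0.192 apart (adjusted p 1.77e-05), with labelled knockout 2 below WT, and the difference was lost without knockout 2 replicate 1 (adjusted p 0.0748). For RB1 they lay 0.186 apart (adjusted p 0.000175), with labelled knockout 2 highest. Groups of 2 libraries were too small to look for a library that stands apart from its group.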

How the results depend on the processing

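No member's change turned its direction while called, in any alternative run. Over all comparisons and alternatives, 1132 values for single members kept their side of the threshold, 53 lost and 12 gained a call. CDKN1A under CoCl2, CCND1 at 50 µM, and CCND1, CDK6 and CDKN2C in each labelled knockout stayed called in each alternative run. Against H2O or WT, so did CCND3, CDK6 and RB1 at 50 µM, RB1 in labelled knockout 2 and CDKN2D in labelled knockout 3. Of 9 members, 3 were called at 10 µM, but 1 in a single fit of all 14 libraries. Averaging the labelled knockouts, 6 were called, but 2 (CDK6 and CDKN2C) when they shared 1 coefficient, a fit that counts the spread between them as error and in which CCND1 had an adjusted p of 0.0885. Without 1 library each, the members called were 2 to 4 at 10 µM, 6 to 7 at 50 µM, 4 to 6 between the doses, 4 to 5 in labelled knockouts 1 and 3, 4 to 7 in labelled knockout 2 (4 without its replicate 1), 3 to 6 in the average (3 without WT replicate 1) and 2 to 3 among the labelled knockouts.

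Replicates share only a number, and the fit with a replicate block called 3, 6, 6, 5, 7, 5, 5 and 3 members in the 8 comparisons (10 µM, 50 µM, between doses, knockouts 1, 2 and 3, their average, among them) against 3, 7, 6, 5, 7, 5, 6 and 3 without it. Over all genes, the 3098 called at 10 µM became 1066 in DESeq2, 796 in the fit of all 14 libraries, 2063 without H2O replicate 1 and 1860 without 10 µM replicate 2. The 7198 between the doses became 4758 in DESeq2 and 4674 in the fit of all libraries. Labelled knockout 1 went from 2462 to 1375 and 3 from 2653 to 1568 without 1 library, 2 from 3698 to 2406, and the average from 2656 to 1587, or to 256 with 1 coefficient. The cause was not tested. Depth limits CCND2, with at most 2 counts in a library.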

Other observations

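The untreated groups of the 2 batches, H2O and WT, carry the same genotype label and differed in inhibitor mRNA, though batch and culture cannot be told apart and no test was made. CDKN1A was at 25.9 ± 0.105 TPM in H2O and 61.0 ± 0.511 TPM in WT (SD, n = 2), and the 50 µM CoCl2 libraries, at 58.7 ± 0.931 TPM, lay near the WT value of the other batch. CDKN1B held 64.4% to 64.5% of the inhibitor TPM in H2O and 45.7% to 45.9% in WT. CDKN1C was at 12.1 ± 0.634 CPM in H2O and 0.253 ± 0.0545 CPM in WT.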
